A study of Homo sapiens with 10 samples.

Results

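Common fragile sites are chromosome stretches that tend to gap and break when DNA replication is slowed, and many of them lie inside very long genes. Replication crosses such genes late and from few starting points, and deletions within them are frequent in tumour cell lines. The genes described here are 9 such genes: FHIT, WWOX, MACROD2, LRP1B, IMMP2L, DLG2, LSAMP, NAALADL2 and DAB1, out of 19974 protein-coding genes in the annotation. They were taken by name, and a peak was counted for a gene when it touched the gene's span on GRCh38 (RefSeq) or the 2 kb on either side. Together the 9 spans cover 13.25 Mb.

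The peaks come from chromatin immunoprecipitation and sequencing of H4R3me2s, the symmetric dimethylation of arginine 3 on histone H4, a mark written mainly by the methyltransferase PRMT5 and usually described as repressive. All libraries are from SH-SY5Y, a human neuroblastoma line grown with 10% FCS and 300 µg/ml zeocin. The BDNF+Dox group (n = 3) was differentiated with 10 µM retinoic acid (RA) for 6 days in 3% FCS and 50 ng/ml BDNF for 4 days without FCS, and received 1 µg/ml doxycycline for 3 days, which turned on α-synuclein through a Tet-on system. The BDNF group (n = 3) was differentiated in the same way without doxycycline, and the Naive group (n = 3) had neither treatment. A single Input library of the same line, without antibody, was the control for all 9 ChIP libraries. The labels give no RA, BDNF or doxycycline treatment for the Input. The labels do not say whether the BDNF and Naive cells carry the Tet-on construct, and name neither its promoter nor a clone, and doxycycline without the α-synuclein construct was not analysed here, so doxycycline and α-synuclein cannot be told apart here. Whether the replicates are separate cultures is not stated in the labels, and the p-values therefore reflect the spread between these libraries, which may be technical. The peak lists measure neither expression nor DNA breakage, so the cell type, the α-synuclein level and the fragility of these genes were not checked here.

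Depth after removal of duplicates ran from 17164402 to 18928589 reads over the 9 libraries, with 17074000 for the Input. Peak number varied far more than depth, between 4505 and 12135 peaks per library on chromosomes 1 to 22 and X, and the lowest and highest counts fell in different groups (BDNF 2 and Naive 1). A raw number of peaks in a gene therefore moves with its library's total, and both are given.

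The 9 genes were among the longest of the genome, from LSAMP at 643114 bp, rank 192 by length among protein-coding genes, to DLG2 at 2173362 bp, rank 5. FHIT, which encodes a hydrolase of diadenosine polyphosphates lost in many tumours, lies at chr3:59747277-61251452. WWOX, an oxidoreductase with WW domains, lies at chr16:78099654-79212667. MACROD2, an enzyme that removes ADP-ribose from proteins, lies at chr20:13995516-16053197. LRP1B, an endocytic receptor of the LDL receptor family, lies at chr2:140231423-142131016. IMMP2L, a subunit of a peptidase of the inner mitochondrial membrane, lies at chr7:110662644-111562492. Of the genes with neuronal roles, DLG2 (chr11:83455012-85628373) encodes a postsynaptic scaffold protein, LSAMP (chr3:115802374-116445487) an adhesion protein of neuronal surfaces, and DAB1 (chr1:56994778-58546726) the adaptor that carries the reelin signal into migrating neurons. NAALADL2 (chr3:174440982-175810548) encodes a membrane protein related to the glutamate carboxypeptidases.

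RefSeq promoter sequences (GRCh38.p14, 250 bases before to 50 after a start) matched 8 of the 9 genes, with LRP1B unmatched. Those of FHIT and MACROD2 are shown because these were the genes with a peak within 2 kb of an annotated gene end, and that of IMMP2L because its peak numbers in BDNF+Dox and BDNF did not overlap. All read 5′ to 3′ on the gene's own strand, and capitals mark GGGCGG or its complement CCGCCC, the core of the GC box. The first is at chr3:61251403-61251702 (minus strand), the second at chr20:13995266-13995565 (plus strand) and the last at chr7:111562443-111562742 (minus strand).
FHIT: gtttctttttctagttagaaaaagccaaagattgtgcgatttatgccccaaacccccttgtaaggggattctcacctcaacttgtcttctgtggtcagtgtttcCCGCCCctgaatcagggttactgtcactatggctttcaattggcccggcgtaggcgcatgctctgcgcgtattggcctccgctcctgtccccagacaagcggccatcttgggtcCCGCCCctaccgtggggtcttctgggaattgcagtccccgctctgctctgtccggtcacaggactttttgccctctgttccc
MACROD2: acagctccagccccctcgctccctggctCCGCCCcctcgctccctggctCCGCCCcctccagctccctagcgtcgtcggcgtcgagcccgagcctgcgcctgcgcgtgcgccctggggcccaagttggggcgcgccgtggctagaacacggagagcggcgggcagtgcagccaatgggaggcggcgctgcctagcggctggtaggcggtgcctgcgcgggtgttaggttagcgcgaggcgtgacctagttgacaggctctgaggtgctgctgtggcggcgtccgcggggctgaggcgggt
IMMP2L: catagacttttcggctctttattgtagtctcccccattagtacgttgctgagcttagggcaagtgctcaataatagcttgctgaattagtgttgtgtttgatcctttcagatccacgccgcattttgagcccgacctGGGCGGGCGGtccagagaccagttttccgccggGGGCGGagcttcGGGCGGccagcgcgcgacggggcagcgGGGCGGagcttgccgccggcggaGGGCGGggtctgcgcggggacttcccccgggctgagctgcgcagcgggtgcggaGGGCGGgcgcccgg
FHIT and MACROD2 have 2 promoter entries each, and the 1 at the gene's outer end is shown. The motif, searched on both strands, was found 2 times in the FHIT window shown, 2 times in that of MACROD2 and 7 times in that of IMMP2L, where 2 of the matches overlap in one run of capitals. The other entries of FHIT and MACROD2 held 0 matches. It occurs in 45.0% of all 34961 promoters of this length, and 10 of the 23 promoters of the 8 genes held it. GC content was 55.0% with 13 CG pairs in FHIT, 73.3% with 34 in MACROD2 and 65.0% with 31 in IMMP2L, against medians of 58.7% and 14 over all promoters. No library or pooled peak overlapped these 3 windows. The nearest one started 0.682 kb upstream of the FHIT window, a peak of BDNF+Dox 1 at chr3:61252384-61252629. For MACROD2 it was a pooled peak 1.18 kb from the end of the window, inside the gene, and for IMMP2L a Naive 1 peak 2.54 kb upstream.

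Every one of the 9 genes held H4R3me2s peaks, 352 in all, in a background where 37.3% of protein-coding genes and 99.4% of those of 500 kb or more held any. The density was 2.95 peaks per Mb and library over the 9 genes, 3.07 over the 314 protein-coding genes of at least 500 kb (the 9 among them), 2.29 over all protein-coding genes and 2.58 over the usable genome. Averaged over the 9 libraries, the fragile-site genes thus lay close to other very long genes in density and above the genome. In the BDNF group the mean was not above the genome, at 1.96 ± 0.495 against 2.01 ± 0.413 peaks per Mb (SD, n = 3). BDNF 1 and BDNF 2 lay below their genome density, while BDNF 3 and all BDNF+Dox and Naive libraries lay above theirs. Since the cells were measured in bulk, a mark carried by fewer cells and a weaker mark in every cell cannot be told apart.

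**Figure D1:**
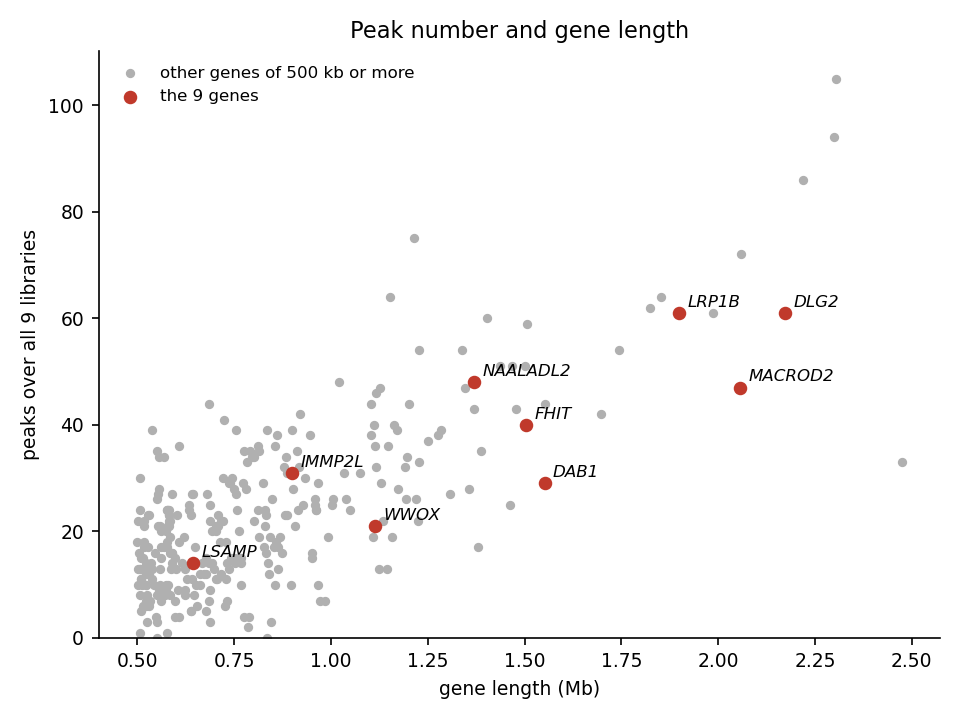
Gene length in Mb (x axis) and the number of peaks summed over the 9 libraries (y axis) for the protein-coding genes of 500 kb or more, the 9 fragile-site genes in red and the other genes in grey. The red points lie within the grey cloud, with LRP1B and DLG2 highest at 61 peaks each and LSAMP lowest at 14.

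Among the 9 genes, NAALADL2 was densest with 3.88 ± 2.50 peaks per Mb (SD over the 9 libraries, here and for the other genes), followed by IMMP2L with 3.81 ± 1.84, LRP1B with 3.56 ± 1.83 and DLG2 with 3.11 ± 1.86. FHIT had 2.95 ± 1.73, MACROD2 2.53 ± 1.32, LSAMP 2.40 ± 2.33, WWOX 2.09 ± 1.68 and DAB1 2.07 ± 1.47. Each step in this order was smaller than the SD over libraries. That SD holds group differences and library totals that the 9 genes share, so it is not the spread of a difference between genes. Whether neighbours in the order differ was not tested. Placed among the 314 long genes by density, they ran from rank 84 for NAALADL2 to rank 229 for DAB1.

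Set against their own chromosomes, the order changed. MACROD2 stood above the density of chromosome 20, 1.46 peaks per Mb, in 8 of 9 libraries. WWOX was above that of chromosome 16, 1.40 per Mb, in 6 of 9. IMMP2L, second in the order, sits on chromosome 7, whose density of 4.09 per Mb exceeded that of the gene itself, and it was above its chromosome in 3 of 9 libraries. DAB1 was below chromosome 1 (2.89 per Mb) in 7 libraries and above it in 2.

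The comparison of BDNF+Dox with BDNF sets doxycycline and α-synuclein induction together, which cannot be told apart here, beside differentiation without doxycycline. FHIT and IMMP2L had more peaks in every BDNF+Dox library than in any BDNF library. FHIT held 9, 6 and 6 peaks in BDNF+Dox, 1, 4 and 3 in BDNF, and 4, 1 and 6 in the Naive group. The BDNF+Dox values lay above all BDNF values, while Naive reached up to the lowest of them. FHIT averaged 7.00 ± 1.73 peaks in BDNF+Dox libraries, 2.67 ± 1.53 in BDNF libraries and 3.67 ± 2.52 in Naive libraries (SD, n = 3 each). IMMP2L held 4, 5 and 5 peaks in BDNF+Dox, 1, 2 and 2 in BDNF, and 5, 5 and 2 in the Naive group, so that BDNF lay below BDNF+Dox, and Naive overlapped both. Its means were 4.67 ± 0.577 in BDNF+Dox, 1.67 ± 0.577 in BDNF, and 4.00 ± 1.73 in the Naive group.

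These 2 of 9 genes stand beside 7.2% of the 708 protein-coding genes tested that were likewise separated and higher in BDNF+Dox, and 0 of the 9 beside 0.424% that were separated and lower. Genes entered the test with at least 9 peaks over the 9 libraries, and all 9 fragile-site genes did. For FHIT and IMMP2L the exact two-sided permutation p was 0.1, the smallest that 3 libraries against 3 can give. The library totals moved with this result, at 10807, 6908 and 6304 peaks in BDNF+Dox against 6105, 4505 and 6850 in BDNF. Scaled to 10000 peaks of the library, FHIT had 8.33, 8.69 and 9.52 in BDNF+Dox against 1.64, 8.88 and 4.38 in BDNF, while IMMP2L had 3.70, 7.24 and 7.93 in BDNF+Dox against 1.64, 4.44 and 2.92 in BDNF. On that scale both genes overlapped between the groups, 0 of the 9 were separated, and the calls over all genes were 46 higher and 25 lower in BDNF+Dox, where peak numbers gave 51 and 3. With the 4505 strongest peaks of every library, IMMP2L was still separated and FHIT was not.

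The other genes did not separate BDNF+Dox from BDNF. LRP1B had 6, 9 and 11 peaks in BDNF+Dox, 4, 6 and 8 in BDNF, and 12, 2 and 3 in the Naive group, the last spread covering both other groups. NAALADL2 had 11, 4 and 5 in BDNF+Dox, 2, 5 and 3 in BDNF, and 10, 7 and 1 in the Naive cells. MACROD2 had 7, 6 and 7 in BDNF+Dox, 4, 0 and 7 in BDNF, and 9, 4 and 3 in the Naive group. In these genes 1 library often set the group mean, as with the 0 of MACROD2 in BDNF 2, the library with the fewest peaks of all. WWOX had 5, 5 and 0 peaks in BDNF+Dox, 1, 0 and 3 in BDNF, and 3, 2 and 2 in the Naive group. DAB1 had 8, 3 and 2 in BDNF+Dox, 2, 0 and 4 in BDNF, and 3, 2 and 5 in the Naive cells. LSAMP, the shortest, had 3, 0 and 0 in BDNF+Dox, 1, 2 and 1 in BDNF, and 3, 0 and 4 in the Naive group, and was the only one of the 9 with a lower mean in BDNF+Dox than in BDNF. The difference of means, BDNF+Dox minus BDNF, was above 0 in 8 of the 9 genes, beside 66.0% of the 708 genes. Its median per Mb was 1.5 peaks in the 9 genes, 1.13 in the 275 tested genes of 500 kb or more and 1.31 over the 708. Per 10000 library peaks and Mb the medians were 1.25 in the 9 genes, 0.22 in those long genes and 0.25 over the 708.

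DLG2 was the gene that set BDNF+Dox apart from Naive, a comparison that joins differentiation with doxycycline and induction. It held 7, 5 and 5 peaks in BDNF+Dox, 9, 1 and 2 in BDNF, and 10, 8 and 14 in the Naive group. All BDNF+Dox values lay below all Naive values, and BDNF 1 lay among the Naive libraries. The means were 5.67 ± 1.15 in BDNF+Dox, 4.00 ± 4.36 in BDNF, and 10.7 ± 3.06 in the Naive cells (SD, n = 3 each). The exact two-sided permutation p was 0.1 for BDNF+Dox against Naive, the lowest possible, and 0.2 for BDNF against Naive. DLG2 was the 1 of 9 genes separated and lower in BDNF+Dox, where 2.12% of the tested genes were, and 0 of 9 were separated and higher, where 2.68% were. Scaled to 10000 library peaks DLG2 still separated, with 6.48, 7.24 and 7.93 in BDNF+Dox and 8.24, 13.7 and 17.8 in Naive, and FHIT became separated and higher in BDNF+Dox. With peaks of −log10 p of 3 or more alone, DLG2 no longer separated these groups. Scaled to 10000 library peaks, the calls over all genes were 52 higher and 34 lower in BDNF+Dox, against 19 and 15 by peak numbers.

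For differentiation alone, BDNF against Naive, 0 of the 9 genes separated in either direction, beside 0.706% of tested genes higher and 5.08% lower in BDNF. Scaled to 10000 peaks these were 27 higher and 42 lower, against 5 and 36 by peak numbers. Over the 3 groups at once, the exact permutation test of the F ratio gave p = 0.107 for IMMP2L, 0.111 for FHIT and 0.118 for DLG2, and from 0.486 in WWOX to 0.668 in LSAMP for the other 6. Adjusted by Benjamini-Hochberg over the 708 genes, all 9 permutation values were 1. No gene among the 708 passed an adjusted p of 0.05 (0%), 27 (3.81%) had an unadjusted p under it, and the smallest p that 1680 assignments allow is 0.00357. Over 708 genes an adjusted call would need many genes tied at that smallest p, and 1 gene reached it. The lack of adjusted calls therefore does not show that the groups were alike.

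**Figure D2:**
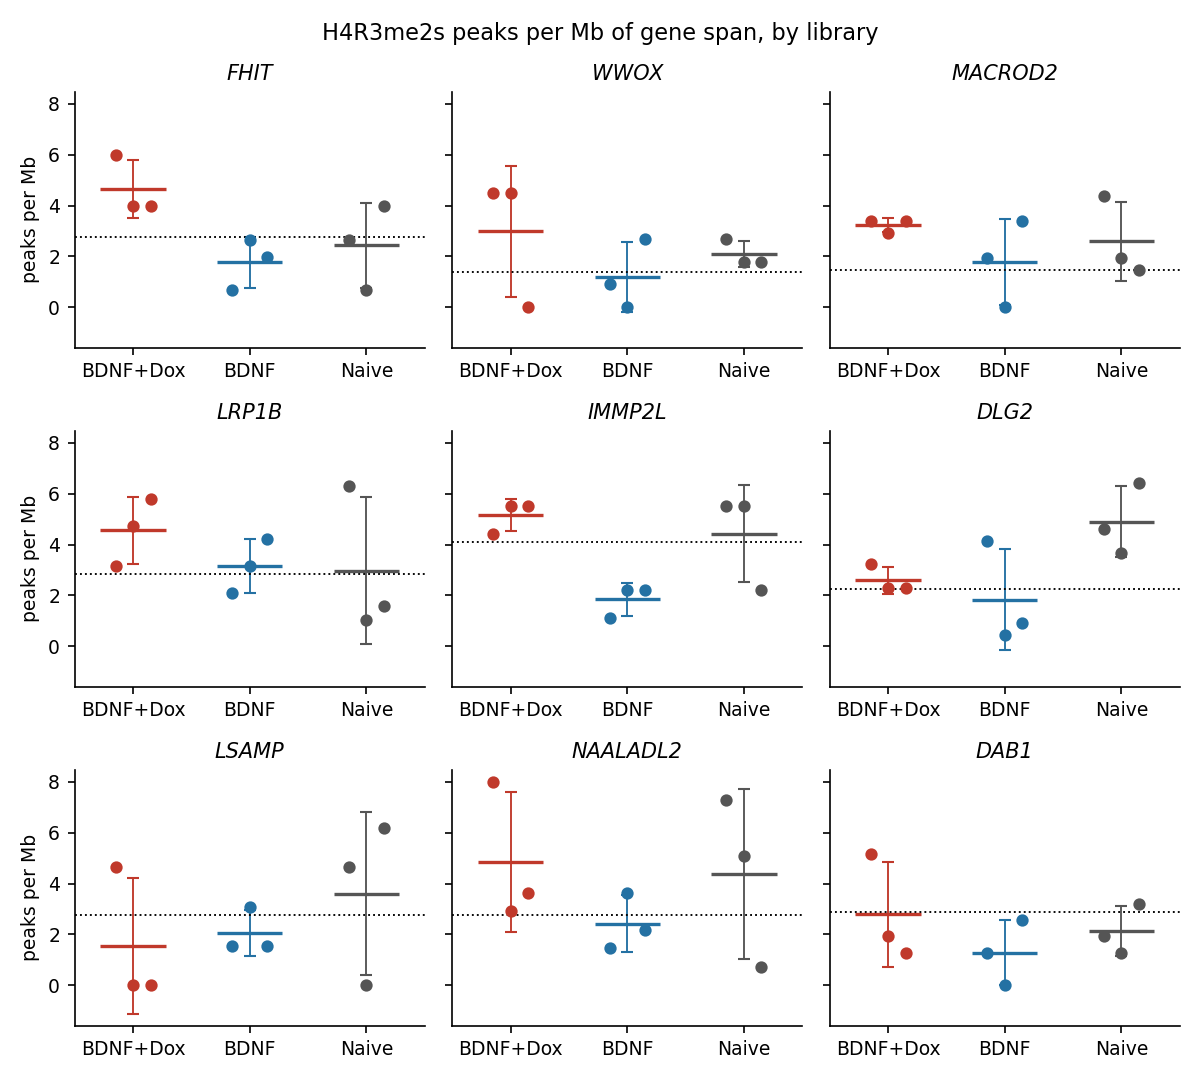
Peaks per Mb of gene span (y axis) in each library (points), with group means (bars) and SD (whiskers, n = 3), for BDNF+Dox, BDNF and Naive; the dotted line is the density of the gene's own chromosome. BDNF+Dox lies wholly above BDNF in FHIT and IMMP2L, and wholly below Naive in DLG2.

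Counted as a set, the 9 genes had 60, 43 and 41 peaks in BDNF+Dox, 25, 20 and 33 in BDNF, and 59, 31 and 40 in the Naive group. Per Mb these are 3.62 ± 0.788 in BDNF+Dox, 1.96 ± 0.495 in BDNF, and 3.27 ± 1.08 in the Naive group, while the usable genome had 2.76 ± 0.842 in BDNF+Dox, 2.01 ± 0.413 in BDNF, and 2.97 ± 1.11 in the Naive cells (SD, n = 3 each). BDNF+Dox thus lay wholly above BDNF and overlapped Naive. As a share of the library the 9 genes took 55.5, 62.2 and 65.0 of every 10000 peaks in BDNF+Dox, 41.0, 44.4 and 48.2 in BDNF, and 48.6, 53.1 and 51.0 in the Naive group, where the spans make up 45.7 of every 10000 bases of usable length. The 3 groups did not overlap on this measure, with BDNF+Dox highest and BDNF lowest, but the margins were narrow. The highest BDNF library had 48.2 and the lowest Naive library 48.6, and the highest Naive library had 53.1 and the lowest BDNF+Dox library 55.5. No p is given, because the genes were chosen as a set with earlier results of these data known.

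In other very long genes BDNF+Dox also had the highest shares, by a narrow margin. Protein-coding genes of 500 kb or more, without the 9, took 1058 ± 15.9 of every 10000 peaks in BDNF+Dox, 1013 ± 32.1 in BDNF, and 1017 ± 9.61 in the Naive group (SD, n = 3 each, genes summed). The lowest BDNF+Dox library had 1045 and the highest of the other libraries 1041, while BDNF and Naive overlapped. A list of 24 other large fragile-site genes did overlap, with 134 ± 12.4 in BDNF+Dox, 136 ± 11.0 in BDNF, and 133 ± 5.49 in the Naive cells. The higher share in BDNF+Dox was thus not seen in this second list.

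**Figure D3:**
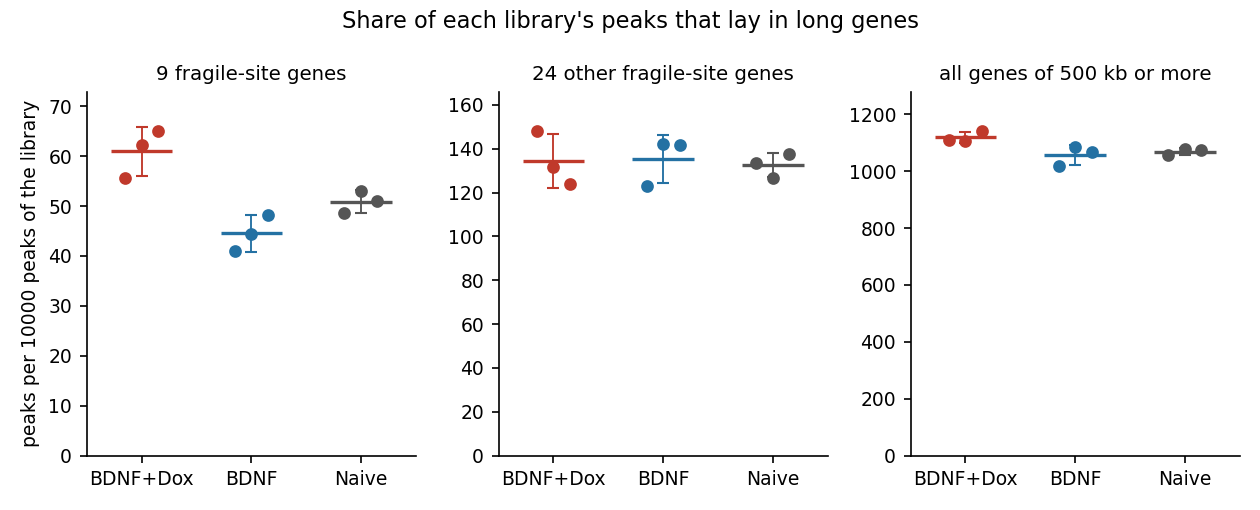
Peaks in 3 sets of long genes per 10000 peaks of the library (y axes starting at 0), by library (points) with group means (bars) and SD (whiskers, n = 3); a peak shared by overlapping genes counts for each, and the right panel includes the 9 genes. The 9 genes range from 55.5 to 65.0 in BDNF+Dox, from 41.0 to 48.2 in BDNF and from 48.6 to 53.1 in Naive, while the 24 other fragile-site genes overlap across groups.

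The peaks were scattered along the genes. Cut into 5 equal parts from the lower coordinate, the 9 genes held 78, 62, 64, 80 and 68 peaks. Counted from the annotated start in the 8 genes with a promoter entry, which gives the strand, the parts held 59, 64, 51, 54 and 63 of 291 peaks, with no step toward the start. DLG2 was uneven, with 25 of its 61 peaks in the part from 60% to 80% of its length, 6 of 17 in BDNF+Dox, 5 of 12 in BDNF, and 14 of 32 in the Naive group. IMMP2L had 12 of 31 peaks in its first part, 7 of 14 in BDNF+Dox, 0 of 5 in BDNF, and 5 of 12 in the Naive cells, and 11 of them had their centres within 100 kb, between positions 110692181 and 110776612. This is the 3′ end of IMMP2L, which is read from the minus strand.

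Long stretches between neighbouring peak centres held no library peak. In DAB1 the widest spanned 367 kb, from 57837023 to 58203909, or 23.6% of the gene. MACROD2 had one of 296 kb, from 14277958 to 14574330. WWOX had one of 217 kb, 19.5% of its length, and the widest in NAALADL2, the densest gene, was 88.3 kb. A library peak within 2 kb of an annotated gene end was found in 1 of the 9 genes, beside 8.97% of protein-coding genes. This was the BDNF+Dox 1 peak 0.932 kb upstream of the FHIT start.

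**Figure D4:**
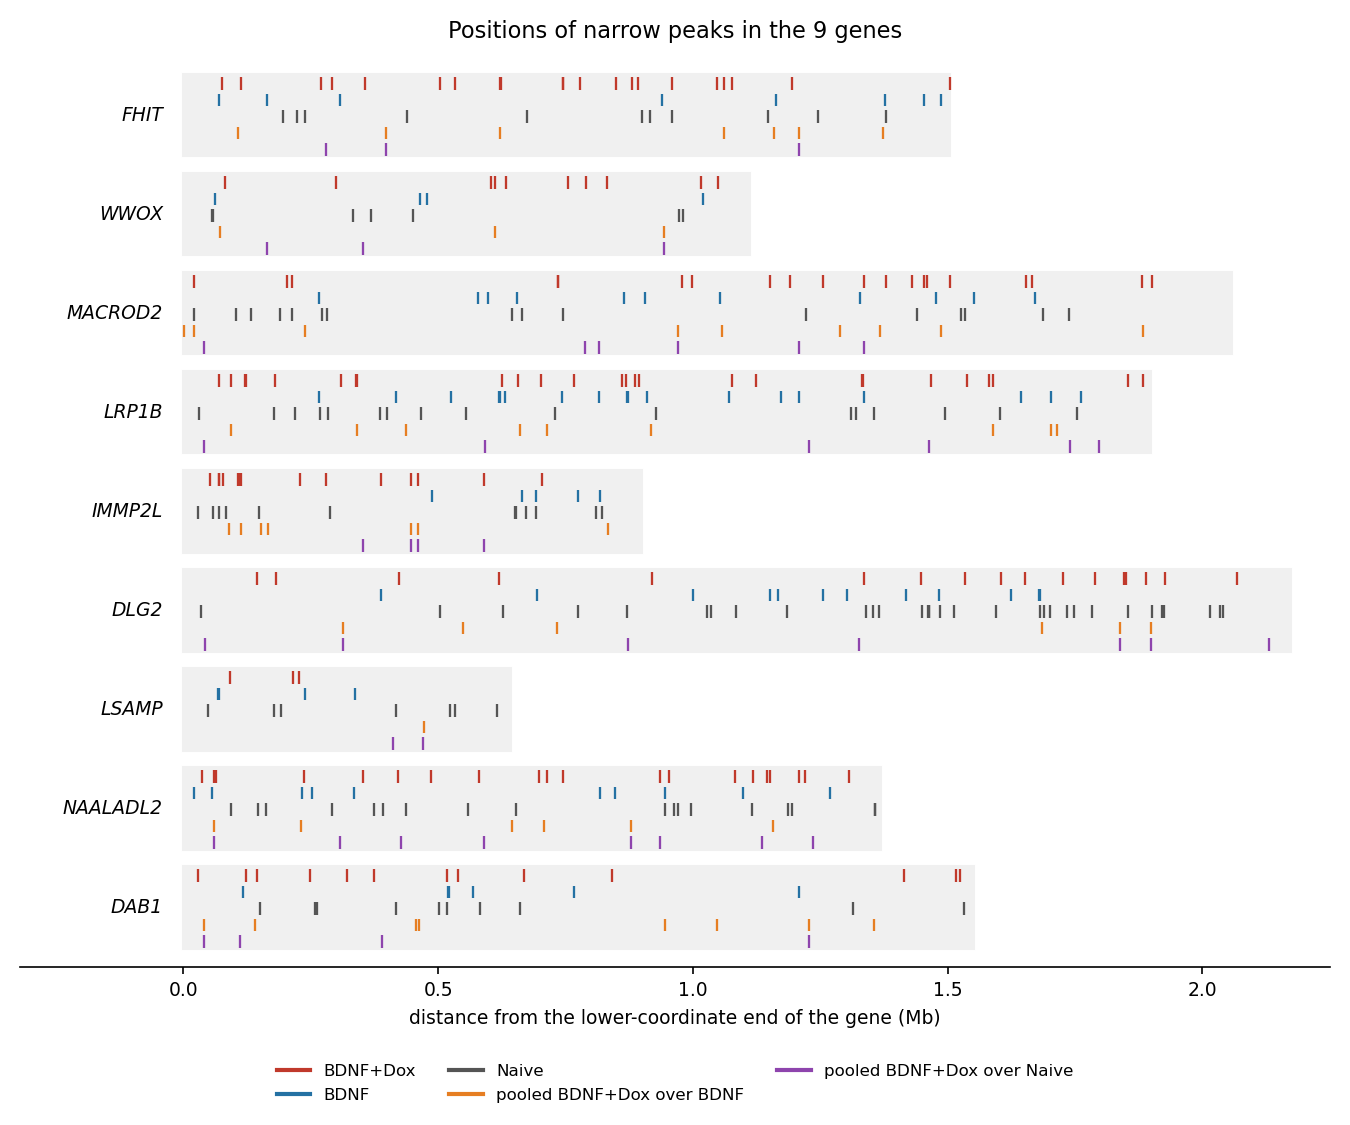
Narrow peaks (ticks) along each gene, as distance in Mb from its lower-coordinate end (x axis), in rows for BDNF+Dox, BDNF, Naive (libraries called against Input, 3 per group) and the pooled lists of BDNF+Dox over BDNF and over Naive. Peaks spread over the whole length of most genes, with a denser stretch in the right part of DLG2 and a stretch without library peaks in the right part of DAB1, where pooled peaks over BDNF lie.

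Few places recurred between libraries. The 352 peaks merged into 347 regions, of which 342 came from 1 library and 5 (1.44%) from 2, beside 2.37% of all 65632 regions with 2 or more. The region in FHIT, chr3:60705446-60705826, joined BDNF+Dox 3 and Naive 3. That in MACROD2, chr20:14209154-14209328, joined BDNF+Dox 1 and Naive 2. That in DAB1, chr1:57511527-57511772, joined BDNF+Dox 2 and Naive 3. The DLG2 region, chr11:85135342-85135815, joined BDNF 3 and Naive 3, and the NAALADL2 region, chr3:175385601-175385816, joined BDNF 3 and Naive 1. None joined libraries of 1 group, so the BDNF+Dox peaks of FHIT and IMMP2L did not overlap between libraries. Some lay close together without overlap. In FHIT these were chr3:60492037-60492204 (BDNF+Dox 2) and chr3:60492280-60492454 (BDNF+Dox 1). In IMMP2L they were chr7:110731887-110732054 (BDNF+Dox 2) and chr7:110732214-110732367 (BDNF+Dox 3), with a Naive 1 peak beside them at chr7:110732369-110732700. WWOX, LRP1B, IMMP2L and LSAMP had 0 such regions.

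Single library peaks in these genes had the same median fold as elsewhere. Scores and folds of a peak are the authors' own, from MACS2 against Input. The median fold was 3.47 in the 9 genes and 3.47 over all library peaks, and 1 of the 352 had q of 0.05 or less, beside 0.290% of all. That peak lay in DLG2 in Naive 2, at chr11:85375775-85375983 (fold 5.97, q = 0.00334). In the other genes the lowest q were those of a MACROD2 peak of Naive 1 at chr20:14640159-14640375 (fold 5.26, q = 0.0645) and an LRP1B peak of BDNF+Dox 2 at chr2:141092460-141092671 (fold 5.24, q = 0.0671).

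The authors also pooled the libraries of each group and called BDNF+Dox directly over BDNF and over Naive. All 9 genes had a narrow peak over BDNF, where 14.7% of 19974 protein-coding genes and 91.1% of the 314 long ones had, and all 9 over Naive, where 13.1% and 83.8% had. There were 56 peaks over BDNF (4.23 per Mb, against 4.36 in the long genes and 3.39 over the genome) and 43 over Naive (3.25 per Mb, against 3.41 and 2.72). Pooled narrow peaks in the fragile-site genes were thus slightly sparser than in the long genes and denser than over the genome. The broad calls, given below, were denser than in the long genes. Over BDNF the counts were 9 each in MACROD2 and LRP1B, 8 in DAB1, 7 each in FHIT and IMMP2L, 6 each in DLG2 and NAALADL2, 3 in WWOX and 1 in LSAMP. Over Naive they were 8 in NAALADL2, 7 in DLG2, 6 each in MACROD2 and LRP1B, 4 each in IMMP2L and DAB1, 3 each in FHIT and WWOX and 2 in LSAMP. Per Mb, IMMP2L was densest of the 9 over BDNF at 7.75 and NAALADL2 over Naive at 5.82. IMMP2L lies on chromosome 7, where library peaks were dense as well (4.09 per Mb), and pooled density by chromosome is not given here. Both lists use the same BDNF+Dox reads, so peaks that they share are not independent, and a list gives no spread between replicates.

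The strongest of them was in MACROD2 over Naive, at chr20:14810816-14811021, where the authors' deposited table gives a 4.40-fold enrichment at q = 0.00260. It was the only pooled narrow peak of the 9 genes with q of 0.05 or less. Over Naive, 1 of the 9 genes held such a peak, beside 0.19% of protein-coding genes, and 1.01% of the listed peaks reached it. Over BDNF, 0 of the 9 did, beside 0.12% of genes and 0.822% of peaks. The MACROD2 peak over Naive overlapped a peak of 0 of the 9 libraries. Over BDNF the lowest q in the authors' deposited table was 0.136 in IMMP2L, at chr7:110829521-110829683 with a fold of 3.46. By their best peak, the next genes in the authors' deposited table were FHIT, 3.69-fold at chr3:60954871-60955227 (q = 0.221), and MACROD2, 3.46-fold at chr20:14016050-14016216 (q = 0.252). The MACROD2 peak overlapped one of BDNF+Dox 2, and the other 2 overlapped none. The best peaks of DAB1 (q = 0.486), NAALADL2 (0.522), WWOX and DLG2 (0.716 each), LRP1B (0.827) and LSAMP (1) were weaker in the authors' deposited table. Over Naive the best q outside MACROD2 in the authors' deposited table were 0.232 in IMMP2L, 0.564 in DAB1, 0.587 in DLG2, 0.663 in NAALADL2 and 0.667 in LRP1B, and 1 in FHIT, WWOX and LSAMP.

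By fold these peaks looked like the rest of their lists. The median fold in the authors' deposited table was 2.83 in the 9 genes and 2.77 over the list for BDNF, and 2.78 in both for Naive. The −log10 q there was 0 for 64.3% of the 56 narrow peaks over BDNF and 83.7% of the 43 over Naive. The whole lists had 68.5% and 82.8%. Library support was thin: 11 of the 56 over BDNF (19.6%) met a peak of 1 BDNF+Dox library, 0 met 2 or more, and the whole list had 17.9% with any. Of the 43 over Naive, 5 (11.6%) did, against 18.3% of that list. Without BDNF+Dox 2, 4 of the 56 remained, and without either BDNF+Dox 1 or BDNF+Dox 2, 3 of the 43. None of the 99 pooled peaks overlapped a peak of a BDNF or Naive library, which was rare in the whole lists too, at 0.0102% (BDNF libraries) and 0.893% (Naive libraries) over BDNF and 0.622% (BDNF libraries) and 0.0254% (Naive libraries) over Naive. The reads of the compared group were the control of each list, so little overlap with that group's libraries follows from the call. LRP1B and IMMP2L had 3 supported peaks each over BDNF, FHIT 2, and WWOX, MACROD2 and NAALADL2 1 each.

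**Figure D5:**
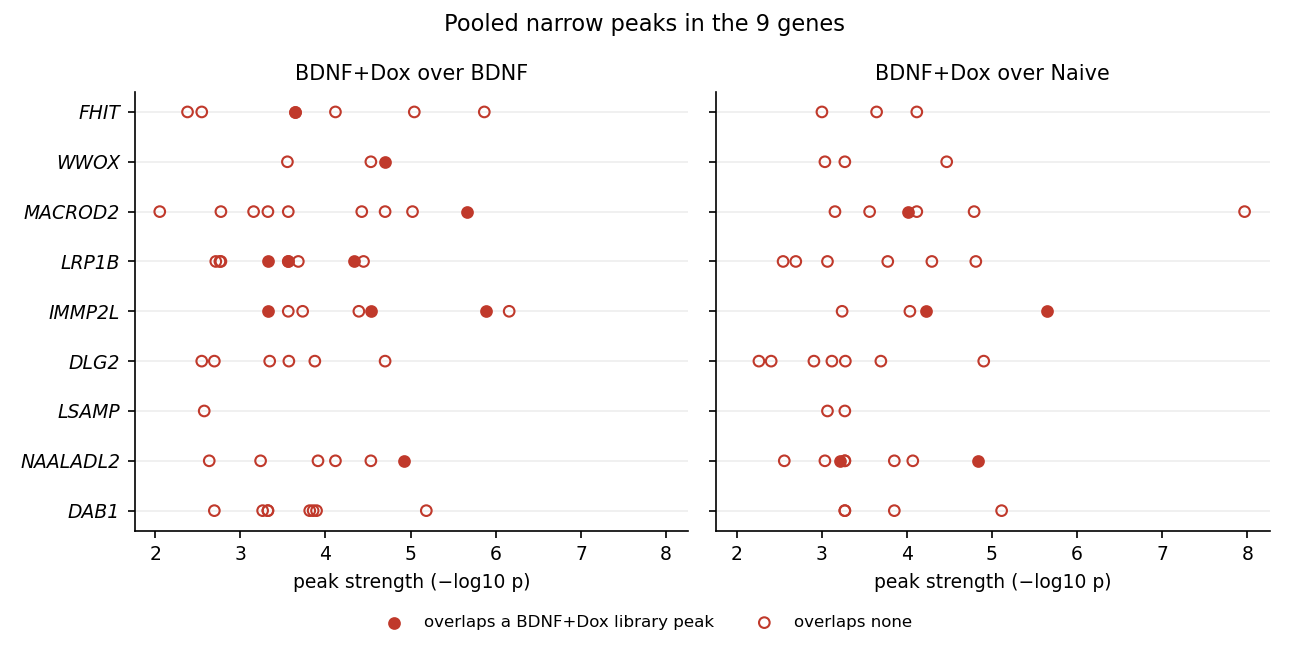
Strength of each pooled narrow peak (−log10 p from MACS2, x axis) by gene, for BDNF+Dox over BDNF and over Naive; filled points overlap a peak of a BDNF+Dox library and open points overlap none. The MACROD2 peak over Naive lies farthest right and is open, and 11 points over BDNF and 5 over Naive are filled (points of equal strength coincide).

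The broad calls, which join weaker neighbouring signal, gave 162 peaks over BDNF and 130 over Naive in the 9 genes, 12.2 and 9.81 per Mb, beside 11.0 and 8.79 in the long genes and 8.69 and 6.95 over the genome. All 9 genes held some in both lists, where 25.5% and 23.7% of protein-coding genes and 98.4% and 97.8% of the 314 long ones did. DLG2 had most over BDNF, 25, and MACROD2 and NAALADL2 most over Naive, 24 each. Per Mb, NAALADL2 was densest in both, at 17.5. Near gene starts, FHIT had a broad peak over BDNF at chr3:61252521-61252760, overlapping the BDNF+Dox 1 peak upstream of the gene, and the authors' deposited table lists it at 2.29-fold (q = 1). MACROD2 had a narrow peak over BDNF at chr20:13996745-13997058, 1.23 kb inside its start, that overlapped no library peak.

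Within these long genes lie 93 shorter annotated genes, 3 of them protein-coding. They held 30 of the 352 library peaks (8.52%) and cover 10.5% of the length, a smaller share of peaks than of length. OMA1, a mitochondrial protease gene inside DAB1, held 3 library peaks, 1 each of BDNF+Dox 1, BDNF+Dox 3 and Naive 1, and FLRT3, an adhesion gene inside MACROD2, held 0. LRRN3, a neuronal leucine-rich repeat gene inside IMMP2L, held 2 peaks, both of BDNF+Dox 2, at chr7:111110281-111110484 and chr7:111123288-111123510, and none in the other 8 libraries. Both places were also called in the pooled lists, and the authors' deposited table has the second at 3.23-fold over BDNF (q = 0.211) and 3.17-fold over Naive (q = 0.232). Since the pooled reads include BDNF+Dox 2, this is the same library seen again. These nested genes were named after their values were seen.

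A pair of lists of related genes gives the scale. The 24 other large fragile-site genes all held peaks, at 3.30 per Mb and library. Any peak was held by 37.3% of protein-coding genes and 99.4% of those of 500 kb or more. All 24 had a pooled narrow peak over BDNF, beside 14.7% of protein-coding genes and 91.1% of the 314 long ones. Over Naive 23 had one, beside 13.1% and 83.8%. CNTNAP2 (5.05 per Mb), DIAPH2 (5.05) and DPP10 (4.74) were densest, each above NAALADL2, the densest of the 9 genes. BDNF+Dox was separated from and above BDNF in 4 of the 24, beside 7.2% of the 708 tested genes, and below in 0, beside 0.424%. It was below Naive in 2, beside 2.12%, and above in 0, beside 2.68%. BDNF was below Naive in 2, beside 5.08%, and above in 0, beside 0.706%. Per Mb the 24 genes had 3.59 ± 1.44 peaks in BDNF+Dox, 2.57 ± 0.550 in BDNF, and 3.75 ± 1.45 in the Naive group (SD, n = 3 each). Of 15 genes that keep fragile sites stable, among them the checkpoint kinase ATR and the helicase WRN, 10 held a library peak, 27 peaks in all. This stands beside 37.3% of protein-coding genes of any length. ATR and WRN had 7 each, FANCI 3, FANCD2, BLM and TOP1 2 each, and EME1, RAD52, TIMELESS and CLSPN 1 each. None had enough peaks to be tested. A pooled narrow peak lay in 1 of the 15 over BDNF and in 2 over Naive, beside 14.7% and 13.1% of protein-coding genes.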

How the data were processed

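H4R3me2s ChIP-seq of 9 libraries and 1 Input was analysed from the deposited peak lists. Per the submitters' processing notes, cutadapt 1.1, Trimmomatic 0.32, Bowtie (version not given in the sources used here), MACS2 2.2.7.1 and GRCh38 were used. Peaks of single libraries were called over the Input at a p threshold of 0.01, per the file headers, and merged BDNF+Dox reads over merged BDNF and over merged Naive reads, narrow and broad. The deposited files give each peak's pileup (a signal of read coverage), −log10 p-value, −log10 q-value and fold enrichment, which the authors computed with MACS2. The pooled calls list gains in BDNF+Dox and no losses, and depth per peak is unknown, so no interval is given.

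Peaks were counted per protein-coding gene span plus 2 kb each side (RefSeq, GRCh38), and genes with 9 or more peaks were tested by exact permutation with Benjamini-Hochberg adjustment (python 3.11.15, numpy 2.4.6, pandas 2.3.3), tested on simulated data. A pair of groups is called separated when no value overlaps. Regions join library peaks sharing 1 bp or more. Usable length is 2902 bins of 1 Mb holding a gene or a peak. Named were the 9 genes, their strongest pooled narrow peaks, recurring regions, peaks within 2 kb of gene ends, and members of the lists of 24 other large fragile-site genes and 15 maintenance genes, the first by highest and lowest density (the lowest are not reported here), the second where they held a peak. Nested genes, gaps, dense stretches and the strongest library peaks were named after their values were seen. The genes and lists were chosen with earlier results of these data known. Alternatives were peak strength, flank, equal peak numbers, scaling to 10000 peaks, overlap, filter, replicate block and leaving out each library.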

Additional observations from a re-analysis of the deposited data

How the results depend on the processing

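The log2 ratio of peaks per Mb over the 9 genes, BDNF+Dox over BDNF, was 0.88. It was 0.54 with equal peak numbers (4505 per library), 0.45 per 10000 library peaks, and 0.69 to 1.09 on leaving out single libraries. BDNF over Naive was -0.74, against -0.14 with equal numbers, -0.19 per 10000 peaks and -0.95 to -0.45 without single libraries. BDNF+Dox over Naive was 0.15, with -0.05 to 0.44 without single libraries and a change of sign without BDNF+Dox 1 (-0.05) or Naive 2 (-0.04). Per 10000 library peaks, the 9 genes averaged 60.9 in BDNF+Dox and 50.9 in the Naive group. Of the 9 genes, the 2 higher in BDNF+Dox than BDNF became 1 (IMMP2L) with equal numbers and 0 per 10000 peaks. Those higher than Naive numbered 0, and 1 (FHIT) per 10000 peaks. The 1 lower than Naive (DLG2) became 0 at −log10 p of 3 or more. The 5 recurring regions became 3 with an overlap of 50%, with −log10 p of 3 or more and with equal numbers, and 2 to 5 on leaving out single libraries (2 without Naive 3, 3 without BDNF 3). At −log10 p of 3 or more 17 broad peaks remained over BDNF and 9 over Naive. At q of 0.05 or less 0 narrow and 0 broad remained over BDNF, and 1 narrow and 0 broad over Naive. Pooled peaks with library support numbered 4 to 9 over BDNF and 3 to 4 over Naive on leaving out BDNF+Dox libraries. Same-numbered libraries did not deviate together (correlations from -0.11 to 0.046), so numbers were not taken to pair them. With the replicate block 0 genes passed the adjusted permutation test, 5 had an unadjusted p under 0.05, and the smallest possible p was 0.0278. With so high a smallest p an adjusted call was practically out of reach, so this setting cannot show whether the result holds. Over 125 alternative fits of the 9 genes the lowest permutation p was 0.0107 (DLG2 without BDNF 1) and the lowest adjusted p 0.639. The cause of these changes was not tested. With 3 libraries a group no pair of groups can give a p below 0.1.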
